A study of Mus musculus with 12 samples.

Results

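The ribosome biogenesis genes are 42 mouse genes for the proteins that transcribe, modify, cut and assemble ribosomal RNA in the nucleolus. They were taken by name from the deposited count table of mouse enteroids, where all 42 had a row among 18068 genes and all 42 passed the filter on low counts. Enteroids are epithelial cultures, derived in this study from ileum of wild-type C57Bl/6 mice. Poly(A) RNA was sequenced from 12 libraries in 4 groups of 3. The untreated group had neither agent, the butyrate group had 1 mM butyrate (48 h), the IL-13 group had 20 ng/mL IL-13 (72 h), and the last had both at those doses and times. Butyrate, a short fatty acid from bacterial fermentation of fibre, inhibits histone deacetylases. Among the cytokines of type 2 immunity, IL-13 reaches the epithelium and signals there through STAT6. The labels give the wild-type strain for every group, and are silent on the age and number of mice, on which agent came first, and on whether the libraries of a group came from separate cultures or animals. The p-values therefore measure the spread between these libraries, which may be technical.

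Ribosomes begin in the nucleolus, where RNA polymerase I copies the ribosomal DNA into a long precursor. Small nucleolar ribonucleoprotein particles (snoRNPs) modify that precursor, box C/D particles by methylation and box H/ACA particles by pseudouridylation, while large assembly complexes fold and cut it into the RNAs of the small and large subunits. In the intestine the pathway is known to be most active in the dividing cells of the crypt, and Myc is a well known activator of its genes.

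Levels are counts scaled to a common library size (CPM) by trimmed means (TMM), ± SD with n = 3 libraries a group, and log2 fold changes as estimate ± SE from edgeR's quasi-likelihood test over 13750 genes. A gene was called at an adjusted p under 0.05. Totals ran from 13867982 to 24294456 counts a library, and the members' counts from 14 to 15006 with a median of 651.5. All 10 epithelial markers were detected, with summed levels of 9828 to 13691 CPM, whereas mesenchymal markers summed to at most 6.10 CPM, endothelial markers to at most 3.50 CPM and immune markers to at most 34.7 CPM. In a bulk library, fewer cells of a type and less RNA per cell cannot be told apart.

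Butyrate + IL-13 replicate 3 stood apart. It held the lowest value of all 12 libraries for 37 of the 42 members and for 18.5% of all genes tested, and it was the highest library for Lars2, at 6983 CPM, followed by butyrate replicate 2 at 5048 CPM and by 423 to 1434 CPM in the other 10 libraries. Several results that rest on that library are therefore given with and without it. Values with both agents include it unless stated otherwise, and "replicate 3" below stands for it where no other group is named. What part the difference in Lars2 had in the results was not tested.

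Summed over the 42 members, expression was highest in untreated enteroids and lowest with both agents. The members took 0.327%, 0.322% and 0.329% of all counts in the untreated libraries, 0.288%, 0.292% and 0.263% with butyrate, 0.238%, 0.233% and 0.236% with IL-13, and 0.178%, 0.176% and 0.135% with both. The 4 groups did not overlap in this share. After TMM scaling the summed level was 2979 ± 37.5 CPM in untreated enteroids, 2682 ± 129.7 CPM with butyrate, 2421 ± 22.3 CPM with IL-13 and 1818 ± 243 CPM with both. These correspond to 90.0%, 81.3% and 61.0% of untreated after TMM scaling, and to 86.1%, 72.4% and 49.9% with library totals alone. Without butyrate + IL-13 replicate 3 the group given both stood at 65.7% of untreated after TMM scaling.

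**Figure D1:**
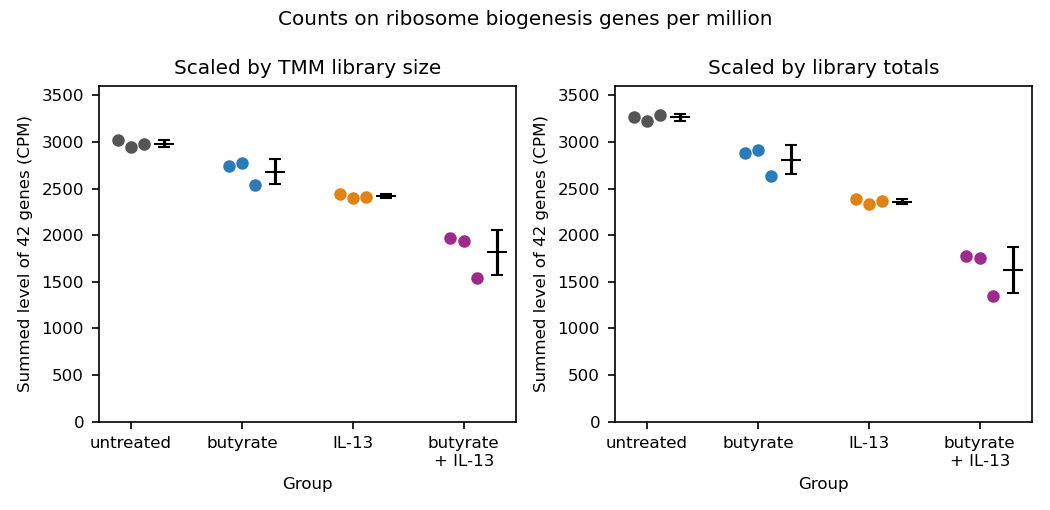
Summed expression of the 42 ribosome biogenesis members in each of the 12 libraries by group, with group means and SD (n = 3). The IL-13 libraries lie close together (2421 ± 22.3 CPM after TMM scaling), and replicate 3 lies under the other libraries given both agents.

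The order of the group means was shared by many members. Both agents together gave the lowest mean in 41 of 42 members (38.7% of all genes), and the untreated mean was the highest in 32 (35.0%). The full order untreated, butyrate, IL-13, both held in 25 members (21.5% of all genes). For 27 members every library given both agents was under all 9 other libraries, as for 11.9% of all genes. The map of all members by library shows the same order, with Rrn3, Rrp12, Nop10 and Nop14 among the exceptions.

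**Figure D2:**
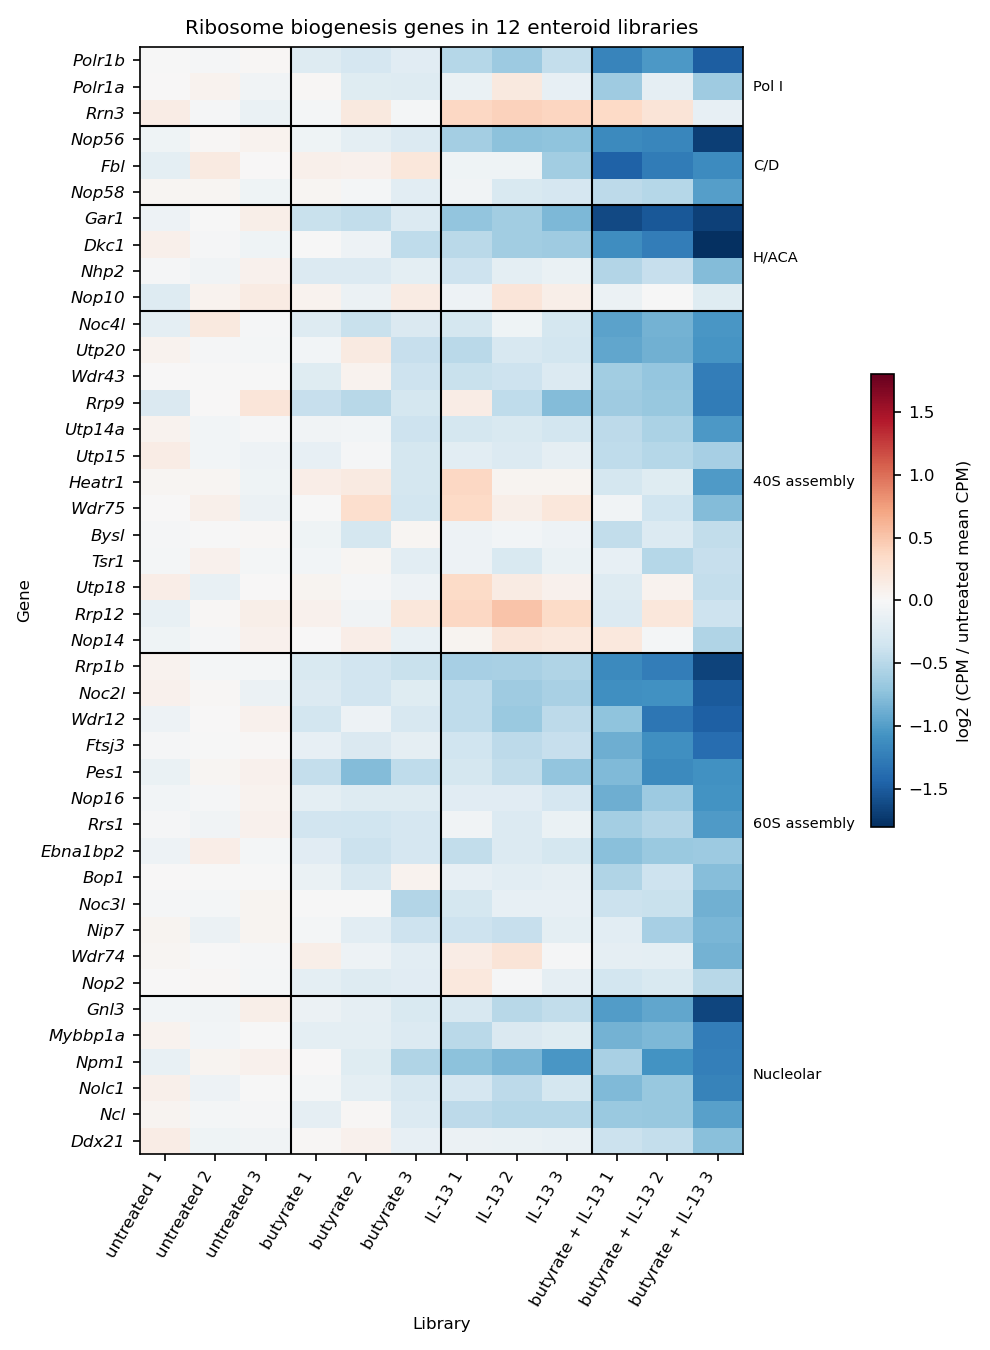
Level of each of the 42 members (rows, by role) in each of the 12 libraries (columns, by group) as log2 of the CPM relative to the untreated mean. The columns of butyrate + IL-13 are the lowest for most rows, with replicate 3 the lowest column in 37 of 42.

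IL-13 against untreated enteroids showed a fall in 17 members and a rise in 2, Rrn3 and Rrp12. Of all genes tested, 21.7% were lower and 21.8% higher in this comparison, and the share of members was 40.5% lower and 4.76% higher; the difference between those shares was not tested. The median log2 fold change was -0.24 over the members and -0.01 over all genes. The IL-13 libraries lay entirely under the untreated ones for 28 members and entirely above them for 4, against 29.9% and 29.4% of all genes. With library totals in place of TMM, the median of all genes moved to -0.18, the split of all genes from 2980 lower and 2997 higher to 4651 lower and 1822 higher, and that of the members to 29 lower and 0 higher. Relative to the median of all genes, the members' median was -0.23 with either scaling. Butyrate against untreated enteroids left 2 members called, Gar1 and Pes1, both lower, against 2.76% of all genes called lower and 5.14% called higher.

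More members passed the test with both agents than with IL-13. Against IL-13 alone, 33 members were called lower and 0 higher, where 11.3% of all genes were lower and 9.85% higher. Against butyrate alone 32 were lower and 0 higher, with 24.9% and 22.9% of all genes. Against untreated enteroids 35 fell and 0 rose, with 31.5% and 28.2% of all genes, and 11 of the 42 fell by at least 2-fold, with 12.7% of all genes. These last comparisons share libraries with each other and are not independent. Median log2 fold changes of the members were -0.50, -0.49 and -0.70 in the same order, against -0.01, -0.04 and -0.05 over all genes. By edgeR 0 members were higher at an unadjusted p under 0.05 in any of the 3 (at least 15.8% of all genes in each), and DESeq2 also called 0 higher. Libraries did not overlap, on the lower side, for 36 members against IL-13 (19.1% of all genes), for 29 against butyrate (26.8%) and for 36 against untreated enteroids (35.1%), and on the higher side for 0 (17.8%, 23.7% and 31.0% of all genes). Without butyrate + IL-13 replicate 3, 16 members were lower against IL-13 with a median of -0.35, all 16 among the 33, and all genes called lower went from 1557 to 958. In the other comparisons 24 were then lower against butyrate and 32 against untreated enteroids, and Rrn3 was called higher in both. The members' medians were then -0.38 and -0.58. Those still lower by at least 2-fold against untreated enteroids were Dkc1, Fbl, Gar1, Noc2l, Nop56, Polr1b and Rrp1b.

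**Figure D3:**
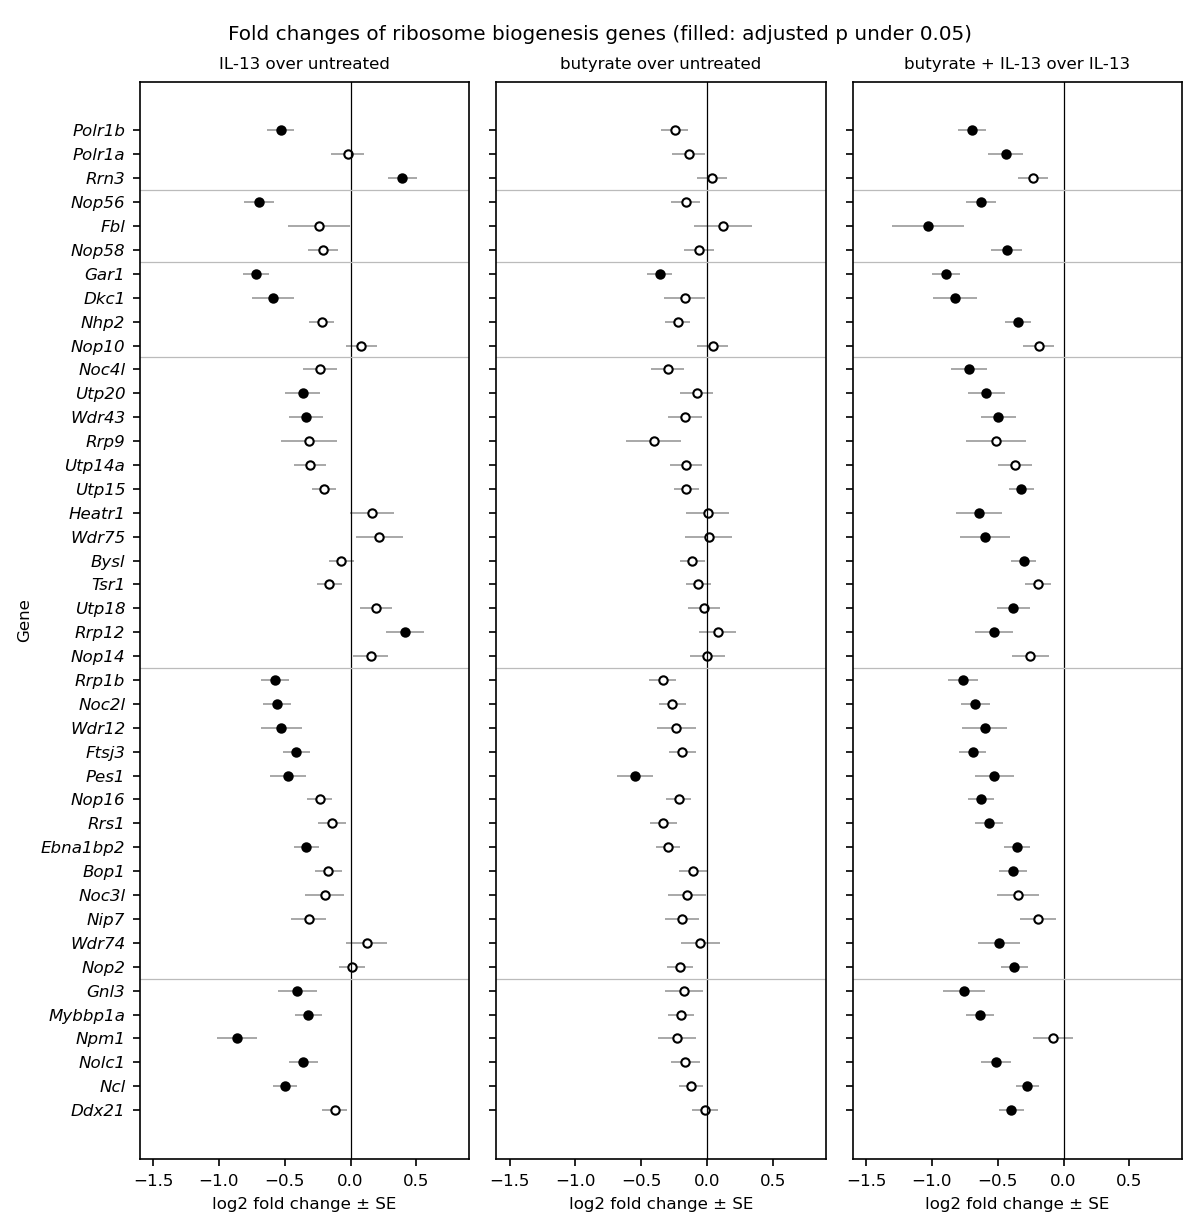
Log2 fold change ± SE of each of the 42 members (by role) with IL-13, with butyrate and with both agents over IL-13, filled where the adjusted p was under 0.05. All 42 points of both agents over IL-13 lie left of 0, and 2 points are filled for butyrate.

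By role, the smallest groups hold 3 or 4 genes, too few to set against the shares of all genes. Those shares were 21.7% called lower and 21.8% higher with IL-13, and 31.5% lower with both agents over untreated. Of the RNA polymerase I genes, 1 of 3 fell and 1 rose with IL-13. Polr1b, which encodes a catalytic subunit of the polymerase (ENSMUSG00000027395, chr2:129100995-129126594 on mm10), was at 57.6, 57.3 and 59.0 CPM in the untreated libraries, 49.5, 47.0 and 50.2 with butyrate, 40.5, 36.9 and 42.9 with IL-13, and 25.5, 28.2 and 20.7 with both. Each group lay wholly under the group before it. Its log2 fold change was -0.53 ± 0.10, edgeR adjusted p = 0.000404 with IL-13, and -1.23 ± 0.11, edgeR adjusted p = 1.87e-08 with both agents over untreated, or -1.08 without replicate 3.

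Rrn3, the factor that brings RNA polymerase I to the ribosomal DNA promoter (ENSMUSG00000022682, chr16:13780699-13814840), was at 55.7, 50.1 and 46.6 CPM in the untreated libraries, 49.6, 57.2 and 49.7 with butyrate, 65.9, 68.0 and 66.5 with IL-13, and 65.2, 59.4 and 45.9 with both. The IL-13 libraries were above every untreated and butyrate library, and replicate 3 of both agents was below all of them. Rrn3 rose with IL-13 (0.39 ± 0.11, edgeR adjusted p = 0.00871). Its adjusted p over the alternatives ran from 0.000195 to 0.116, and the call was lost with library totals alone, at 0.116. With both agents over untreated it was not called (0.16 ± 0.11, edgeR adjusted p = 0.236), and it was called higher without replicate 3 at 0.33.

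Polr1a, the largest subunit, was at 42.4, 44.2 and 40.5 CPM in the untreated libraries, 42.9, 36.5 and 35.9 with butyrate, 39.0, 47.9 and 38.3 with IL-13, and 27.3, 38.0 and 27.1 with both. IL-13 and untreated libraries overlapped (-0.02 ± 0.13, edgeR adjusted p = 0.906), while the fall with both agents over untreated was called (-0.46 ± 0.13, edgeR adjusted p = 0.00523) and was lost without replicate 3, with edgeR adjusted p-values from 8.02e-05 to 0.0527 over the alternatives.

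Box C/D snoRNP genes numbered 3, of which 1 fell with IL-13 and all 3 with both agents over untreated. Nop56, a core protein of the particle (ENSMUSG00000027405, chr2:130274430-130279313), was at 97.1, 104 and 107 CPM in the untreated libraries, 97.0, 91.4 and 86.9 with butyrate, 67.0, 61.3 and 62.3 with IL-13, and 46.3, 45.7 and 31.6 with both. No 2 groups overlapped for Nop56. The fall was -0.69 ± 0.11, edgeR adjusted p = 7.04e-05 with IL-13 and -1.32 ± 0.12, edgeR adjusted p = 2.03e-08 with both, or -1.12 without replicate 3. Nop58, its partner in the particle, had means of 71.1 ± 3.46 CPM untreated, 61.5 ± 5.88 CPM with IL-13 and 45.6 ± 8.42 CPM with both. Only the last of these was called against untreated (-0.64 ± 0.12, edgeR adjusted p = 0.000135). Fbl, the methyltransferase fibrillarin, rested on 14 to 84 counts a library. Per kilobase of exon, with the exons of all annotated transcripts merged, it had the lowest level of all members, 0.724 CPM untreated. That ranking depends on the merged length. Other genes share 19.7% of the 50-base stretches of Fbl, and the sources used here do not say how such reads were counted. Fbl was at 2.69, 3.403 and 3.05 CPM in the untreated libraries, 3.25, 3.22 and 3.51 with butyrate, 2.88, 2.88 and 1.97 with IL-13, and 1.11, 1.27 and 1.39 with both. All libraries given both agents were under the other 9 (-1.27 ± 0.26, edgeR adjusted p = 0.000421 over untreated).

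Of the 4 box H/ACA genes, 2 fell with IL-13 and 3 with both agents over untreated, again too few to set against all genes. Gar1, a core protein of the particle (ENSMUSG00000028010, chr3:129824912-129831396), was at 39.7, 42.3 and 45.6 CPM in the untreated libraries, 32.3, 31.4 and 35.7 with butyrate, 26.0, 27.5 and 24.2 with IL-13, and 13.8, 14.7 and 13.2 with both. The groups did not overlap, and replicate 3 did not stand apart for Gar1. It fell with butyrate (-0.36 ± 0.10, edgeR adjusted p = 0.0275), with IL-13 (-0.72 ± 0.10, edgeR adjusted p = 1.47e-05) and with both over untreated (-1.61 ± 0.11, edgeR adjusted p = 5.27e-10), the last a drop in mean of 67.2% and the most negative fold change of any member there. The butyrate call had adjusted p-values from 0.00856 to 0.158 over the alternatives and was lost without either untreated replicate 2 or 3 or butyrate replicate 1 or 2, with only the groups compared in the fit (0.0542), and without the 2 libraries highest in Lars2 (0.0673). Dkc1, the pseudouridine synthase dyskerin, was at 55.7, 51.4 and 49.2 CPM in the untreated libraries, 52.0, 48.9 and 37.9 with butyrate, 37.1, 33.7 and 33.4 with IL-13, and 24.1, 22.0 and 12.9 with both. It fell with IL-13 (-0.59 ± 0.16, edgeR adjusted p = 0.0063) and with both over untreated (-1.41 ± 0.17, edgeR adjusted p = 9.92e-07, or -1.14 without replicate 3).

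Nhp2, another core protein, had the highest level of all members per kilobase of merged annotated exon in untreated enteroids, 102 CPM, followed by Rrs1 at 62.2. That ranking depends on the merged length, and by CPM alone Ncl was higher than Nhp2. Nhp2 had means of 117 ± 6.15 CPM in untreated and 100.3 ± 9.02 CPM in IL-13 libraries, a difference that was not called (-0.22 ± 0.10, edgeR adjusted p = 0.0704), and fell with both agents (-0.57 ± 0.10, edgeR adjusted p = 6.49e-05). Nop10, the smallest protein of the particle, was at 31.1, 38.4 and 40.4 CPM in the untreated libraries, 38.3, 34.2 and 40.4 with butyrate, 34.3, 42.6 and 39.2 with IL-13, and 33.9, 36.6 and 31.5 with both. All groups overlapped in their ranges, and with Nop14 it was 1 of 2 members called in none of the comparisons (0.08 ± 0.12, edgeR adjusted p = 0.599 with IL-13, -0.11 ± 0.12, edgeR adjusted p = 0.451 with both over untreated).

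**Figure D4:**
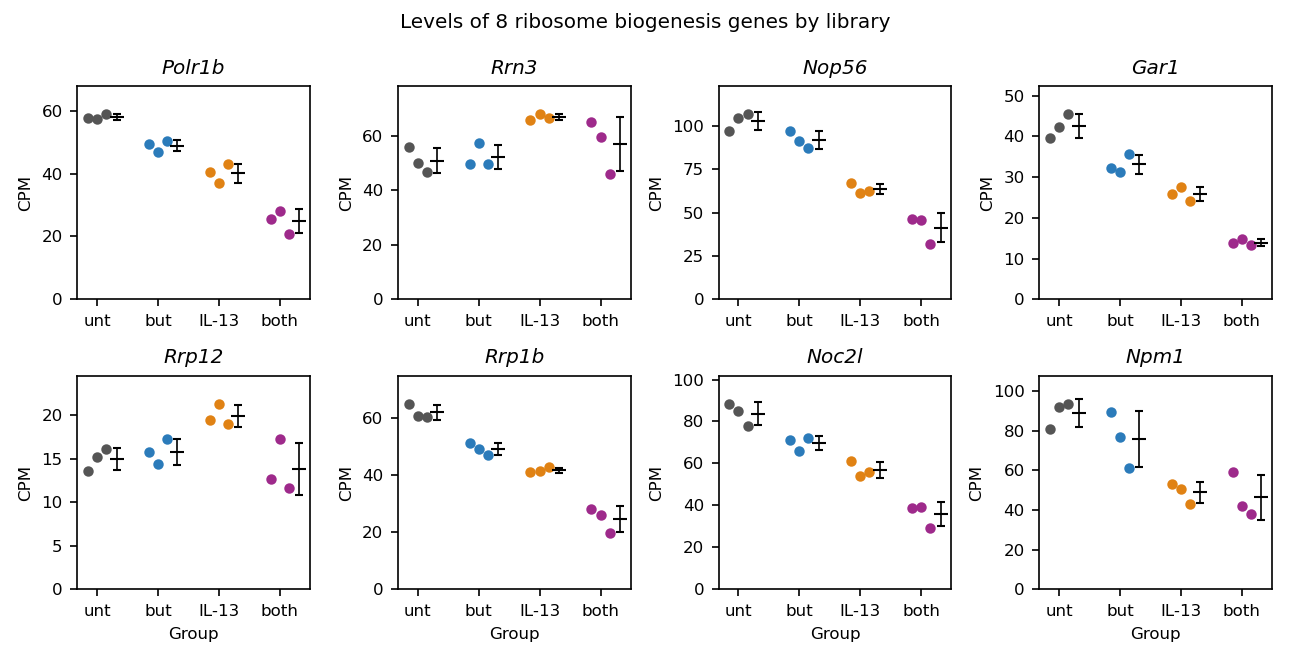
CPM after TMM scaling in each library (points), with mean and SD (n = 3), for 8 members in untreated (unt), butyrate (but), IL-13 and butyrate + IL-13 (both) enteroids. Gar1, Nop56 and Polr1b step down from untreated to both agents, and Rrn3 is highest with IL-13, at 65.9 to 68.0 CPM.

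The small subunit processome and its later assembly factors had 2 of 13 genes lower (15.4%) and 1 higher (7.69%) with IL-13, under the 21.7% and 21.8% of all genes, and 9 of 13 (69.2%) lower with both agents over untreated, against 31.5%. Rrp12, a factor in export and maturation of subunits (ENSMUSG00000035049, chr19:41862852-41896153), was at 13.6, 15.2 and 16.2 CPM in the untreated libraries, 15.8, 14.4 and 17.3 with butyrate, 19.5, 21.4 and 19.0 with IL-13, and 12.7, 17.3 and 11.6 with both. All 3 IL-13 libraries were above all others. Rrp12 rose with IL-13 (0.41 ± 0.14, edgeR adjusted p = 0.0242), with adjusted p-values from 0.00464 to 0.177 over the alternatives: the call was lost with library totals alone, at 0.177, and without untreated replicate 1 or 2 or IL-13 replicate 2. With both agents it was back at 13.9 ± 3.01 CPM, not called against untreated (-0.11 ± 0.15, edgeR adjusted p = 0.519) and lower than with IL-13 (-0.53 ± 0.15, edgeR adjusted p = 0.0157), a call lost without replicate 3 (alone or with the other library highest in Lars2), without replicate 1 of the same group or without IL-13 replicate 2 (edgeR adjusted p from 0.00272 to 0.0989 over the alternatives).

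Utp20, a large scaffold protein of the processome, was at 24.9, 23.6 and 23.3 CPM in the untreated libraries, 23.2, 26.7 and 18.0 with butyrate, 17.2, 19.6 and 19.0 with IL-13, and 12.6, 13.1 and 11.5 with both. The IL-13 libraries were under the untreated ones and those given both were under all others (-0.36 ± 0.13, edgeR adjusted p = 0.0316 with IL-13, -0.95 ± 0.14, edgeR adjusted p = 1.01e-05 with both over untreated). Wdr43, which works in the subcomplex that also acts in transcription of ribosomal DNA, was at 102, 100.3 and 100.4 CPM in the untreated libraries, 86.4, 106 and 77.5 with butyrate, 76.6, 78.1 and 84.6 with IL-13, and 65.2, 62.2 and 42.7 with both. Butyrate replicate 2 was the highest Wdr43 library. The changes were -0.34 ± 0.13, edgeR adjusted p = 0.0418 with IL-13 and -0.83 ± 0.13, edgeR adjusted p = 2.85e-05 with both. The IL-13 calls of Utp20 and Wdr43 were close to the threshold, with adjusted p-values up to 0.115 and 0.122 over the alternatives. Utp20 lost its call without any 1 of the untreated libraries or IL-13 replicate 1 or 3, and Wdr43 without any 1 of the untreated or IL-13 libraries, without butyrate replicate 1 and by DESeq2.

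Heatr1, the processome component known in yeast as Utp10, had means of 22.6 ± 0.952 CPM untreated, 25.4 ± 3.32 with IL-13 and 16.3 ± 4.44 with both. With IL-13 the difference was not called (0.16 ± 0.17, edgeR adjusted p = 0.452); with both agents over untreated it was lower (-0.48 ± 0.17, edgeR adjusted p = 0.0232), a call lost without replicate 3, alone or with the other library highest in Lars2, or without untreated replicate 1 or 2 (edgeR adjusted p from 0.00102 to 0.214 over the alternatives). Bysl, a small subunit assembly factor also called bystin, was at 54.3, 55.2 and 56.1 CPM in the untreated libraries, 52.1, 44.5 and 56.7 with butyrate, 52.1, 53.5 and 52.0 with IL-13, and 40.7, 46.4 and 40.6 with both. The Bysl change was not called with IL-13 (-0.07 ± 0.10, edgeR adjusted p = 0.573) and was called with both over untreated (-0.38 ± 0.10, edgeR adjusted p = 0.00267). Nop14 had 39.2 ± 2.18 CPM untreated, 43.5 ± 2.61 with IL-13 and 36.6 ± 8.98 with both, none of them called (0.15 ± 0.13, edgeR adjusted p = 0.383 with IL-13, -0.10 ± 0.14, edgeR adjusted p = 0.549 with both over untreated). Among the others, Noc4l (-0.95 ± 0.14, edgeR adjusted p = 8.64e-06), Rrp9, the protein that binds the U3 snoRNA (-0.83 ± 0.22, edgeR adjusted p = 0.00349), Utp14a (-0.67 ± 0.13, edgeR adjusted p = 0.000182), Utp15 (-0.52 ± 0.10, edgeR adjusted p = 0.000146) and Tsr1, which acts late on the small subunit (-0.36 ± 0.10, edgeR adjusted p = 0.00398), fell with both agents over untreated. Wdr75 and Utp18 were not called there.

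Large subunit assembly genes fell in 6 of 13 (46.2%) with IL-13 and in 12 of 13 (92.3%) with both agents over untreated, against 21.7% and 31.5% of all genes. Rrp1b, a nucleolar protein of the large subunit precursors (ENSMUSG00000058392, chr17:32036100-32062865), was at 65.0, 60.7 and 60.5 CPM in the untreated libraries, 51.2, 49.1 and 47.0 with butyrate, 41.0, 41.3 and 42.7 with IL-13, and 28.1, 26.1 and 19.6 with both. The groups lay in separate ranges. The change was -0.58 ± 0.11, edgeR adjusted p = 0.000267 with IL-13 and -1.34 ± 0.11, edgeR adjusted p = 1.02e-08 with both, or -1.16 without replicate 3. Noc2l, a factor in release of early large subunit precursors, was at 88.5, 85.1 and 77.8 CPM in the untreated libraries, 71.0, 66.0 and 72.3 with butyrate, 61.3, 54.0 and 55.7 with IL-13, and 38.9, 39.3 and 29.3 with both. Its groups were also in separate ranges (-0.56 ± 0.10, edgeR adjusted p = 0.000295 with IL-13, -1.23 ± 0.11, edgeR adjusted p = 2.05e-08 with both). Ftsj3, a ribosomal RNA methyltransferase, was at 67.6, 68.1 and 69.4 CPM in the untreated libraries, 61.8, 57.2 and 61.2 with butyrate, 53.6, 49.4 and 51.3 with IL-13, and 37.3, 31.8 and 26.5 with both. The IL-13 libraries lay under all the untreated and butyrate ones (-0.41 ± 0.10, edgeR adjusted p = 0.00302 with IL-13, -1.10 ± 0.10, edgeR adjusted p = 5.72e-08 with both).

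Pes1, a member of the complex of Pes1, Bop1 and Wdr12 that acts on the large subunit precursor, was at 19.3, 21.4 and 22.1 CPM in the untreated libraries, 15.5, 12.2 and 15.3 with butyrate, 16.9, 15.4 and 12.9 with IL-13, and 12.1, 9.48 and 9.80 with both. Butyrate and IL-13 libraries overlapped, and both groups lay under the untreated one. It fell with butyrate (-0.55 ± 0.14, edgeR adjusted p = 0.0184), IL-13 (-0.48 ± 0.14, edgeR adjusted p = 0.0104) and both (-1.001 ± 0.15, edgeR adjusted p = 1.13e-05). The butyrate call had adjusted p-values from 0.00516 to 0.0907 over the alternatives and was lost without untreated replicate 2 or 3, without butyrate replicate 2 and without the 2 libraries highest in Lars2 (0.0556), and the IL-13 call was lost without IL-13 replicate 3. Wdr12 fell with IL-13 (-0.53 ± 0.16, edgeR adjusted p = 0.011), from 17.4 ± 1.00 to 12.1 ± 0.957 CPM, a call lost without IL-13 replicate 2. Bop1 was not called with IL-13 and fell with both (-0.55 ± 0.11, edgeR adjusted p = 0.000222).

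Nop2, an RNA methyltransferase, had the fold change nearest 0 with IL-13 (0.01 ± 0.10, edgeR adjusted p = 0.948). Its libraries were at 46.3, 47.0 and 45.1 CPM in the untreated libraries, 40.8, 39.2 and 40.1 with butyrate, 52.6, 45.7 and 41.1 with IL-13, and 36.8, 38.2 and 32.6 with both. IL-13 libraries spanned the untreated range, whereas those given both agents were lower than either (-0.36 ± 0.10, edgeR adjusted p = 0.00434 over untreated, -0.37 ± 0.10, edgeR adjusted p = 0.0132 over IL-13). Over IL-13 the call was lost without replicate 3, alone or with the other library highest in Lars2, and without IL-13 replicate 1, with edgeR adjusted p-values from 0.00205 to 0.0848 over the alternatives. Of the rest, Ebna1bp2 fell with IL-13 (-0.34 ± 0.09, edgeR adjusted p = 0.00766, lost without untreated replicate 2), and Nop16, Noc3l, Rrs1, Nip7 and Ebna1bp2 fell with both agents over untreated, by -0.51 for Nip7 to -0.86 for Nop16 on the log2 scale. Wdr74 was the large subunit gene not called in that comparison, with an adjusted p of 0.0542 by edgeR, and the Noc3l call was lost without replicate 3.

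Nucleolar scaffold, chaperone and regulatory genes fell in 5 of 6 with IL-13 and in all 6 with both agents over untreated, beside the same 21.7% and 31.5% of all genes. Npm1, the nucleolar chaperone nucleophosmin (ENSMUSG00000057113, chr11:33152287-33163206), was at 81.2, 92.3 and 93.8 CPM in the untreated libraries, 89.5, 76.9 and 61.4 with butyrate, 53.2, 50.6 and 43.1 with IL-13, and 59.3, 42.1 and 37.8 with both. IL-13 libraries and those given both overlapped, and both lay under the untreated libraries. It had the largest fold change of the members with IL-13 (-0.86 ± 0.15, edgeR adjusted p = 0.000137), and both agents over IL-13 gave no call (-0.08 ± 0.15, edgeR adjusted p = 0.77). It was the only 1 of the 17 members lower with IL-13 that was not also called lower with both agents over IL-13.

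Ncl, the abundant nucleolar protein nucleolin, was at 631, 598 and 604 CPM in the untreated libraries, 549, 623 and 514 with butyrate, 439, 429 and 429.8 with IL-13, and 384, 380.4 and 309.5 with both. The IL-13 libraries lay close together and under all untreated and butyrate libraries. Its log2 fold change was -0.50 ± 0.09, edgeR adjusted p = 0.000219 with IL-13 and -0.77 ± 0.09, edgeR adjusted p = 8.91e-07 with both over untreated. Over IL-13 its further fall (-0.27 ± 0.09, edgeR adjusted p = 0.0383) was lost under 9 alternatives, among them leaving out replicate 3 or any 1 of the IL-13 libraries and RLE scaling (edgeR adjusted p from 0.00517 to 0.254). Nolc1, a chaperone of snoRNPs, was at 106, 93.7 and 99.3 CPM in the untreated libraries, 96.7, 87.8 and 81.3 with butyrate, 80.8, 71.8 and 80.2 with IL-13, and 57.7, 62.0 and 43.4 with both. Nolc1 libraries given both agents lay under all the others (-0.36 ± 0.11, edgeR adjusted p = 0.014 with IL-13, -0.87 ± 0.11, edgeR adjusted p = 2.85e-06 with both), and the IL-13 call was lost without untreated replicate 1 or IL-13 replicate 2.

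Gnl3, the nucleolar GTPase nucleostemin known from stem cells, had means of 19.5 ± 1.25 CPM untreated, 14.7 ± 1.17 CPM with IL-13 and 8.71 ± 2.17 CPM with both. It fell with both over untreated (-1.16 ± 0.16, edgeR adjusted p = 4.25e-06) and with IL-13 (-0.40 ± 0.15, edgeR adjusted p = 0.033), the second call being lost without any 1 of the untreated libraries or IL-13 replicate 2 or 3. Mybbp1a fell with IL-13 (-0.32 ± 0.10, edgeR adjusted p = 0.0165, lost without untreated replicate 1 or IL-13 replicate 1) and with both (-0.95 ± 0.10, edgeR adjusted p = 3.52e-07). Ddx21, an RNA helicase that binds ribosomal and snoRNA, was not called with IL-13 and fell with both (-0.52 ± 0.10, edgeR adjusted p = 0.00017).

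Butyrate alone gave fold changes below 0 in 35 of 42 members (52.5% of all genes), with a median of -0.16 against -0.01 over all genes. Those medians were -0.10 and -0.02 without butyrate replicate 3, which was the lowest butyrate library in 24 members. By edgeR 0 members were called higher and DESeq2 also called 0 higher. At an unadjusted p under 0.05, 11 members were lower and 0 higher, where 9.67% of all genes were lower and 11.8% higher. Without the 2 libraries highest in Lars2, 3 members were called lower, Rrp1b, Rrs1 and Wdr43, and 0 of the 2 calls, Gar1 and Pes1, remained. DESeq2 called 5 lower: Gar1, Pes1, Rrs1, Rrp1b and Ebna1bp2. The last 3 narrowly missed the threshold by edgeR, with Rrs1 at -0.33 ± 0.10, edgeR adjusted p = 0.0543, Rrp1b at -0.34 ± 0.10, edgeR adjusted p = 0.0553 and Ebna1bp2 at -0.30 ± 0.09, edgeR adjusted p = 0.0561. Butyrate libraries lay wholly under the untreated ones for 18 members and wholly above for 0, where 14.0% and 13.0% of all genes did so.

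The interaction asks whether both agents together differ from the sum of their separate log2 changes. It was called for 0 members by edgeR and 0 by DESeq2, and for 1 by edgeR without replicate 1 of the group given both, where 0.611% of all genes were called lower and 0.255% higher by edgeR. Estimates were negative in 40 of 42 members (54.3% of all genes) with a median of -0.35 (-0.02 over all genes), and 19, all negative, had an unadjusted p under 0.05, where 6.95% of all genes were lower and 3.89% higher. The smallest adjusted p was that of Gar1 (-0.53 ± 0.15, edgeR adjusted p = 0.116), and the positive estimates were those of Npm1 and Pes1, both of which changed sign when single libraries were left out and the latter also with library totals alone. Without butyrate + IL-13 replicate 3, 38 of 42 were negative with a median of -0.21. Of the 35 members lower with both agents over untreated, 18 (51.4%) were called with neither agent alone, against 35.0% of all genes lower in that comparison. Among the 42 members 16 were called lower at each step, IL-13 over untreated and both over IL-13, as were 5.19% of all genes. These differences in share were not tested. Without butyrate + IL-13 replicate 3, Ncl, Pes1, Wdr12 and Wdr43 of those 16 lost the second call. Their edgeR adjusted p-values were then 0.254, 0.0760, 0.110 and 0.0888.

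Other genes of the pathway were read from lists of its stages. With IL-13 the share of 3 of these lists called lower, 17.6% to 25.0%, was near the 21.7% of all genes. Of 44 other small subunit genes, 11 fell (25.0%) and 4 rose with IL-13, and 26 fell (59.1%, against 31.5% of all genes) and 2 rose with both over untreated. Rcl1 fell with IL-13 (-0.71 ± 0.10, edgeR adjusted p = 2.24e-05), and so did Utp6 (-0.57 ± 0.10, edgeR adjusted p = 0.000176), while Riok3, a kinase of small subunit maturation, rose (0.56 ± 0.09, edgeR adjusted p = 7.03e-05), as did Nop9 (0.54 ± 0.10, edgeR adjusted p = 0.00019). Of 45 other large subunit genes, 11 fell (24.4%) and 4 rose with IL-13, Ppan among those that fell (-0.69 ± 0.15, edgeR adjusted p = 0.00129) and Eif6, the factor that keeps the subunits apart, among those that rose (0.59 ± 0.11, edgeR adjusted p = 0.000271); with both over untreated 24 fell (53.3%) and 2 rose. Of 17 other genes of RNA polymerase I transcription, 3 fell (17.6%) and 1 rose with IL-13. With both over untreated 6 of the 17 fell (35.3%, near the 31.5% of all genes) and 1 rose. Ubtf, a factor that binds the ribosomal DNA promoter, was not called with IL-13 (-0.12 ± 0.09, edgeR adjusted p = 0.305) and was lower with both over untreated (-0.36 ± 0.09, edgeR adjusted p = 0.00204). Exosome genes, which trim ribosomal RNA, fell in 4 of 13 (30.8%) with IL-13 and in 10 of 13 (76.9%) with both over untreated, with Exosc9 at -0.89 ± 0.12, edgeR adjusted p = 1.15e-05 with IL-13. With both over IL-13 the shares lower were 27.3% of the other small subunit genes and 31.1% of the other large subunit genes. They were 5.88% of the other RNA polymerase I genes and 23.1% of the exosome genes, and 1 small subunit gene rose. The share was 78.6% of the members and 11.3% of all genes in that comparison. All these shares include butyrate + IL-13 replicate 3. Without it 16 of the 42 members were called lower over IL-13, in place of 33. The shares of the other lists without it are not given here, and the difference between lists was not tested.

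Ribosomal protein genes make the proteins that the pathway assembles. Of 80 cytosolic ribosomal protein genes tested, 41 fell (51.2%) and 2 rose with IL-13, with a median of -0.42. With both agents 53 fell (66.2%) and 2 rose over untreated, with a median of -0.66, 40 fell and 2 rose over butyrate, and 7 fell (8.75%) and 1 rose over IL-13. The shares of all genes called lower were 21.7%, 31.5%, 24.9% and 11.3% in the same order. Rpl22 fell with IL-13 (-1.02 ± 0.10, edgeR adjusted p = 1.43e-07), as did Rpl27a (-1.05 ± 0.11, edgeR adjusted p = 8.21e-07). Mitochondrial ribosomal proteins, made for the other ribosome of the cell, rose in 18 (23.1%) and fell in 1 (1.28%) of 78 with IL-13, against 21.8% and 21.7% of all genes. Many ribosomal protein genes have near-identical copies elsewhere, and how such reads were counted is not stated in the sources used here. Without butyrate + IL-13 replicate 3, both agents over IL-13 gave 2 lower and 3 higher cytosolic ribosomal protein genes.

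**Figure D5:**
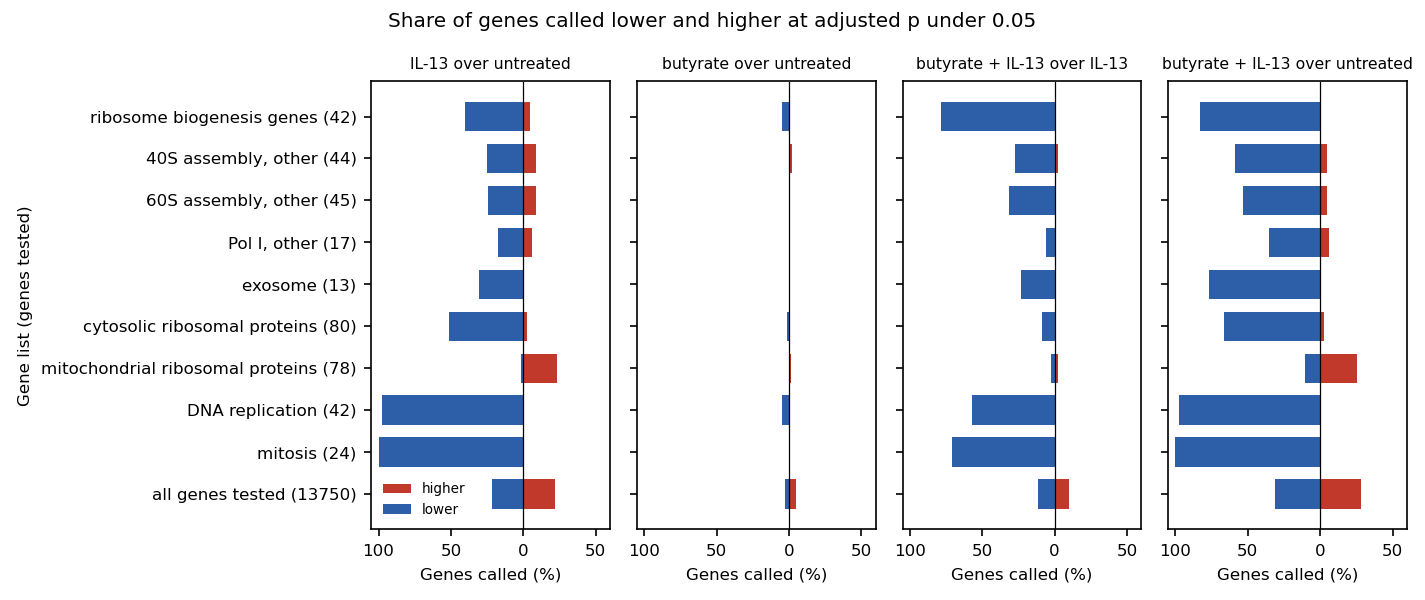
Percent of the tested genes of each list called lower (blue, to the left) and higher (red, to the right) in 4 comparisons, with all genes tested in the bottom bar. The share lower with both over IL-13 is 33 of 42 for the ribosome biogenesis members, against 7 of 80 for cytosolic ribosomal proteins. Both counts include replicate 3 and are smaller without it.

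Proliferation genes and Myc also fell, and the fall of the proliferation lists with IL-13 was larger than that of the members. Beside the 21.7% of all genes lower with IL-13 and the 11.3% lower with both over IL-13, most genes of both proliferation lists fell. Of 42 DNA replication genes, 41 fell with IL-13 (median -1.26). With both agents over IL-13, 24 fell further (median -0.53), or 19 without replicate 3. All 24 mitosis genes fell with IL-13 (median -1.29), and 17 with both over IL-13 (median -0.55), or 9 without replicate 3. The members' medians in these comparisons were -0.24 and -0.50. With butyrate 2 DNA replication genes and 0 mitosis genes were called lower and 0 higher, with medians of -0.29 and -0.18. Of all genes, 2.76% were called lower and 5.14% higher with butyrate. Mki67, a marker of dividing cells, was at 293 ± 2.06 CPM untreated, 286 ± 36.6 with butyrate, 122 ± 30.5 with IL-13 and 78.9 ± 4.99 with both. Myc was at 205 ± 11.1 CPM untreated, 169.9 ± 14.2 with butyrate, 153 ± 7.35 with IL-13 and 112 ± 17.6 with both, and fell with IL-13 (-0.42 ± 0.10, edgeR adjusted p = 0.00223) and with both over untreated (-0.87 ± 0.10, edgeR adjusted p = 7.58e-07). Mxd1, a partner of Max that opposes Myc, went the other way, from 112 ± 6.21 CPM untreated to 149 ± 7.94 with butyrate, 358 ± 27.7 with IL-13 and 625 ± 73.5 with both (2.48 ± 0.10, edgeR adjusted p = 4.88e-13 over untreated). Myc and Mxd1 belong to a list of 13 Myc, Max and partner transcription factors, which was mixed. With IL-13, 5 of the 13 were lower and 3 higher, where 21.7% and 21.8% of all genes were. With both over untreated 6 were lower and 4 higher, against 31.5% and 28.2% of all genes.

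Cell type markers changed alongside. The 14 intestinal stem cell markers summed to a median of 1396 CPM untreated, 1359.9 with butyrate, 933 with IL-13 and 719 with both. With IL-13, 7 of the 14 were called lower and 0 higher, against 21.7% and 21.8% of all genes. With butyrate 2 of the 14 were called higher and 2 lower, against 5.14% and 2.76% of all genes. Lgr5 rose there, from a mean of 9.17 to 26.4 CPM (1.52 ± 0.27, edgeR adjusted p = 0.00153). With both over IL-13, 7 were lower and 2 higher, Smoc2 among the latter (0.41 ± 0.11, edgeR adjusted p = 0.0153). Of all genes 11.3% were lower and 9.85% higher there. The 18 absorptive enterocyte markers summed to 7700 CPM, 10377 CPM, 11007 CPM and 12867 CPM in the order untreated, butyrate, IL-13 and both. With IL-13, 11 of 18 (61.1%) were higher and 2 lower, where 21.8% and 21.7% of all genes were. Epithelial markers summed to 10478 to 10775 CPM untreated and to 13238 to 13691 CPM with both. With both over untreated 6 of the 10 were called higher and 2 lower, against 28.2% and 31.5% of all genes. The 2 lower were Cdx1 (-0.70 ± 0.13, edgeR adjusted p = 0.000213) and Cdx2 (-0.62 ± 0.09, edgeR adjusted p = 1.94e-05). The part of these shifts in the members' results was not tested.

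Sequence near the start sites was read for the 37 members that had an entry in the RefSeq promoter table (GRCm38.p6), each with 250 bases before and 50 after the start. The letters CACGTG, the same on both strands and known as the E-box of Myc and Max, were in 8 of the 37 (21.6%), against 8.09% of 27025 genes with an entry and 11.8% of the 9386 of those that were tested. CCGGAAG, searched on both strands and unable to overlap CACGTG, was in 13 (35.1%), against 9.93% and 19.4%. The longer palindromic motifs of Nrf1 and Zbtb33 were in 0 of 37, with 1.07% and 0.525% of all genes. Of the 8 members with CACGTG, 4 fell with IL-13 (Mybbp1a, Pes1, Utp20 and Wdr43) and Rrn3 rose, and 6 fell with both agents over untreated, beside 17, 2 and 35 of all 42 members. The stretches below run from 220 bases before to 30 after the start, on the plus strand, with CACGTG in capitals. They are shown because these carriers of the letters differed with IL-13: Pes1 (chr11:3963755-3964004) and Wdr43 (chr17:71615995-71616244) fell, Nop2 (chr6:125131663-125131912) was not called, and Rrn3 (chr16:13780479-13780728), with 2 matches, rose.
Pes1: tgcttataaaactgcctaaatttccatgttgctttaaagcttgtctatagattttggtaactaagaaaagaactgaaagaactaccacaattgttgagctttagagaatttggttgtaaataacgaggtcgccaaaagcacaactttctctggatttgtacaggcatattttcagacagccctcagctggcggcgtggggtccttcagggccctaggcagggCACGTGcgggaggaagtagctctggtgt
Wdr43: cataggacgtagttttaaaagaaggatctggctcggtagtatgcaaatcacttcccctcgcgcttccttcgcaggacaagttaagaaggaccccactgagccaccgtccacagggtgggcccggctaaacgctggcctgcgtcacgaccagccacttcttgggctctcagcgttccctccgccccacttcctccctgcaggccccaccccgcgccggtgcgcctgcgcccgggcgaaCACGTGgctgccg
Nop2: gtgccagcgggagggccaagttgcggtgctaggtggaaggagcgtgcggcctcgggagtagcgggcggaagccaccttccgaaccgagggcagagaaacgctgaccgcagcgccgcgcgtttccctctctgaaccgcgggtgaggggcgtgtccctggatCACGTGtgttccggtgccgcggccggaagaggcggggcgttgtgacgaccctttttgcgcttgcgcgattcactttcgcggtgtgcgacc
Rrn3: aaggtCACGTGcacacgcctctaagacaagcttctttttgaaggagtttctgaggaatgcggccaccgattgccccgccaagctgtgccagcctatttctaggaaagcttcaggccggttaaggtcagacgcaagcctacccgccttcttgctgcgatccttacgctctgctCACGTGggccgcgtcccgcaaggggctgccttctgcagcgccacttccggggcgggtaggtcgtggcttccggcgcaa
The first match lies 3 bases after the start in Pes1 and 18 after in Wdr43, counted to its first base, and 60 before in Nop2, with 215 and 48 before in Rrn3. A match describes letters in this window and not binding.

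The authors' deposited table, which compares IL-13 with untreated libraries, gave 23 members an FDR under 0.05, 21 lower and 2 higher. All 19 members called here were among them with the same direction. For Gar1 the authors' deposited table had a log2 fold change of -0.71, and for Rrn3 of 0.40.

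Some levels are uncertain because transcripts of other genes share sequence with a member. Of all stretches of 50 bases in its annotated transcripts, Tsr1 shared 29.1% with other genes, led by its neighbour Srr, Npm1 24.3% and Pes1 23.3%, each with copies elsewhere, Fbl 19.7%, Noc2l 19.2%, Nop56 18.6% and Utp14a 11.01%. Gar1, Rrn3, Rrp12, Utp20 and Nolc1 shared none in the annotation used. The sources used here do not say whether counting used strand.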

How the data were processed

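Directional poly(A) libraries were made from enteroid RNA, per the labels' protocols: 12 in all, 3 in each of 4 groups. For each gene the deposited file gives whole-number read counts, unscaled by the authors, in 18092 rows. Rows sharing a gene were summed (23 genes), leaving 18068 genes. Beside the counts stand results of the authors from a DESeq run on IL-13 and untreated samples, namely a p-value, an FDR (a corrected p-value), a log2 fold change and a shrunken log2 fold change. Only genes with corrected p below 1 in that run are listed, per the file headers, and others were not analysed here. Reads were mapped to mm10 according to the submitters' processing notes. For the aligner, the counter and the use of strand, the sources used here say nothing. Untreated libraries are named US in the table. Noc2l was matched by its identifier and the other members by symbol.

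The 12 libraries were fitted together in edgeR 4.0.16 (R 4.3.3; glmQLFit robust and glmQLFTest) with TMM scaling and filterByExpr, which kept 13750 genes and removed 4318, with a coefficient for each group. Residual degrees of freedom were 8, and the biological coefficient of variation 10.2%. A call needed p under 0.05 after Benjamini-Hochberg adjustment over all genes tested. The 6 comparisons were IL-13, butyrate and both agents over untreated, both over IL-13 and over butyrate, and the interaction. The labels give no batch. The test was tried on simulated counts first.

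Alternatives were RLE scaling, library totals alone, DESeq2 1.42.0, no filter, a mean count of at least 50, only the groups compared, a replicate block, thinning to the lowest total, leaving out the 2 libraries highest in Lars2, and leaving out each of the 12 libraries. The members and lists were chosen with earlier results of these data known. Values in each library were given, within each role, for the members with the smallest adjusted p with IL-13 (1 in the small groups, up to 3 in the larger), for the largest and smallest absolute fold change there, for those called with butyrate, and for 4 not called with IL-13, here those with the largest adjusted p. Fbl, Dkc1 and Rrn3 were added after their values were seen. From other lists, up to 2 genes a direction with the smallest adjusted p with IL-13 were eligible. Myc, Ubtf, Mki67, Pcna, Epcam and Lgr5 were eligible as well. Exon lengths and shared 50-base stretches used GENCODE M21, which covers the same build. Exon lengths merged the exons of all annotated transcripts of a gene, so they can exceed the length of any single transcript.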

Additional observations from a re-analysis of the deposited data

How the results depend on the processing

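Counts of called members kept within 1.5 times of those reported in most alternatives. With library totals alone, IL-13 over untreated gave 29 lower and 0 higher, and butyrate gave 5 lower, as did DESeq2. Without the 2 libraries highest in Lars2, 20 were lower with both agents over IL-13, and 1 was higher with both over butyrate and 1 over untreated. Leaving out each library in turn gave 12 to 20 lower and 1 to 2 higher with IL-13, 0 to 4 lower with butyrate (0 without untreated replicate 2 or 3 or butyrate replicate 2), 16 to 34 lower with both over IL-13 (16 without butyrate + IL-13 replicate 3), 0 to 1 higher with both over butyrate or untreated, and 0 to 1 lower in the interaction. Without the 2 libraries highest in Lars2, the 3 members lower with butyrate included 0 of the 2 reported. Members called under every alternative numbered 9 of 19 with IL-13, 0 of 2 with butyrate, 15 of 33 with both over IL-13, 23 of 32 over butyrate and 32 of 35 over untreated; no called member changed sign. Among members not called, the log2 fold change changed sign with library totals alone for IL-13 in Heatr1 (-0.0027), Nop10 (-0.0861), Nop14 (-0.0156) and Nop2 (-0.1584), and for both over untreated in Rrn3 (-0.1304). Thinning gave -0.0274 for Nop2 with IL-13. For butyrate over untreated, 9 members changed sign under at least 1 alternative, the most of any comparison. Leaving out each library in turn gave -0.0878 to 0.0883 for Nop2, -0.0232 to 0.1627 for Nop10 and -0.1312 to 0.0342 for Polr1a with IL-13, -0.2719 to 0.0680 for Npm1 with both over IL-13, and over untreated -0.2312 to 0.1148 for Nop14 and -0.3009 to 0.0347 for Rrp12. Without the 2 libraries highest in Lars2 those last 3 were 0.0517, 0.0822 and 0.0009. The cause was not tested.

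No signal shared by replicate number was seen: same-numbered libraries had correlations of their deviations from -0.151 to 0.097, against -0.215 to 0.168 for different numbers. These correlations cannot tell whether same-numbered libraries came from the same culture or animal. With a replicate block, 18 members were lower and 2 higher with IL-13, 2 lower with butyrate, 34 lower with both over IL-13, 33 over butyrate, 36 over untreated and 0 in the interaction.

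Over all genes, library totals alone gave 2689 lower and 659 higher with both over IL-13 (1557 and 1355 in the reported fit), 5793 and 1691 over butyrate (3420 and 3144), 6846 and 2155 over untreated (4328 and 3877), and 569 lower with butyrate (379). DESeq2 gave 145 lower and 100 higher in the interaction (84 and 35). Fbl, at 14 counts in its lowest library, is the member whose precision depth limits most.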
